A study of Danio rerio with 48 samples.

Results

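The dopamine, noradrenaline and serotonin genes of the adult zebrafish brain were the 63 of 32520 counted genes whose symbols name a step of these 3 transmitter systems. A gene was taken when its symbol was that of a hydroxylase, decarboxylase, transporter, breaking-down enzyme or receptor of a monoamine. The rule used symbols and no measured value, but it was set with earlier results of these data known. Of the 63, 15 belonged to dopamine, 17 to noradrenaline, 26 to serotonin and 5 to steps that the transmitters share. By role, 48 were receptors, 7 made a transmitter, 5 carried it across a membrane and 3 broke it down. The symbols come from a table that pairs Ensembl identifiers with names, often in capitals after the human gene. Because 14 members shared a symbol with another identifier, those are given with the identifier.

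Whole brains of adult fish of the AB line were compared between a lineage labelled PH and one labelled SCA. The founders (F0) of the exposed lineage had met permethrin, an insecticide of the pyrethroid class, which keeps sodium channels of neurons from closing, early in life at 10 µg/L, and their F1 and F2 offspring were unexposed. The labels do not spell out these letters, and PH was taken here to mean descent from exposed founders and SCA the control. Each generation gave 4 PH females, 4 SCA females, 4 PH males and 4 SCA males, which makes 12 groups of 4 libraries, each read as 1 fish. Nothing in the labels ties the 4 fish of a group to separate tanks or parents, so the p-values measure only the spread between these fish.

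Dopamine and noradrenaline are made from tyrosine, by tyrosine hydroxylase and then DOPA decarboxylase, and dopamine becomes noradrenaline through dopamine beta-hydroxylase. Serotonin is made from tryptophan by tryptophan hydroxylase and the same decarboxylase. A vesicular transporter loads all of them for release, plasma membrane transporters take each one back up, and monoamine oxidase degrades them. The cells that make these amines are few and lie in small groups, in zebrafish in the forebrain and hypothalamus for dopamine, the locus coeruleus and medulla for noradrenaline, and the raphe, pretectum and hypothalamus for serotonin. The receptors sit on many more cells. In RNA of a whole brain, fewer cells of a type and less RNA per cell cannot be told apart.

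Each library held 4802827 to 10032850 counts in genes, and levels are given as CPM, a gene's counts scaled to a common library total with factors from trimmed means (TMM), with mean ± SD of n = 4 fish unless stated. No transcript lengths were used here, so levels are compared between groups and not between genes. Markers of telencephalon, hypothalamus and cerebellum were present in every library, but 5 libraries stood apart in earlier results of these data (SCA female 18, PH male 12 and SCA male 6 of F0, SCA female 8 and PH male 11 of F2), and tests were repeated without them. The lanes in the headers put all F0 PH males on one lane and all F0 SCA males on another, so lane and lineage cannot be told apart there. All F0 females shared the lane of the F0 PH males, so lane and sex cannot be told apart among F0 SCA fish. The comparisons between sexes that include F0 rest in part on those fish. F2 PH females 3 and 4 were on another lane than the remaining F2 fish. The headers give no lane for F1 fish, so whether lane went with lineage or sex there is not known. Reads assigned to genes were 34.76 to 36.64% in F1, beside 31.35 to 34.0% in F0 and F2. Levels of different generations could therefore differ by sequencing, and orders of the 12 group means across generations are descriptions only.

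Most members were measured with few counts. A filter on low counts kept 51 members in F0, 51 in F1, 47 in F2 and 54 when all 48 libraries were fitted together. The 9 members in none of these fits were DRD5, drd1a, drd7, ADRA1A, adrb3b, HTR3A, HTR3B, HTR7 and htr2cl2, and none of them had more than 13 counts in any library. The 2 HTR3 genes, which encode subunits of the serotonin-gated ion channel, had 40 counts for HTR3A and 4 counts for HTR3B over all 48 libraries. The members not tested are not counted below.

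No member passed the test between PH and SCA brains of one sex or of both sexes in any single generation. In edgeR's quasi-likelihood test with Benjamini-Hochberg adjustment over all genes, 0 members were called at an adjusted p under 0.05 in F0 females, F0 males and both F0 sexes together, where 0.0% of all genes tested were called. In F1, 0 members were called in females against 0.0663% of all genes, 0 in males against 0.105%, and 0 in both sexes together against 0.68%. In F2, 0 members were called in females against 0.137% of all genes, 0 in males against 0.0171%, and 0 in both sexes together against 1.1%.

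In none of the 6 comparisons by sex was the members' unadjusted share more than slightly above that of all genes. At an unadjusted p under 0.05, edgeR found 1 of 51 members in F0 females (1.96%, beside 5.09% of all genes), 2 in F0 males (3.92%, beside 6.06%), 1 in F1 females (1.96%, beside 7.94%) and 4 in F1 males (7.84%, beside 8.94%). In F2 females it found 10 of 47 members (21.3%), beside 20.9% of all genes tested, and in F2 males 2 of 47 (4.26%) beside 8.81%. At the same cut DESeq2 found 1, 2, 1, 4, 11 and 3 members in these 6 comparisons, and limma voom 0, 2, 2, 5, 7 and 2. With both sexes together edgeR found 2 members in F0 (3.92%, beside 7.46% of all genes) and 1 in F1 (1.96%, beside 11.4%). After adjustment DESeq2 called 0 members in each of these comparisons except F2 females, where it called ADRA2B, and both F2 sexes, where it called 3. Of all genes, DESeq2 called 543 in F2 females and 951 in both F2 sexes, beside 24 and 193 in edgeR. With lane as a covariate edgeR called 0 and 55 of all genes there. By limma voom 0 members were called in each of these comparisons. The members' median log2 fold change was -0.04 in F0 females, -0.09 in F0 males, -0.11 in F1 females, 0.15 in F1 males, -0.27 in F2 females and -0.15 in F2 males. Over all genes tested the medians lay between -0.02 and 0.02.

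**Figure D1:**
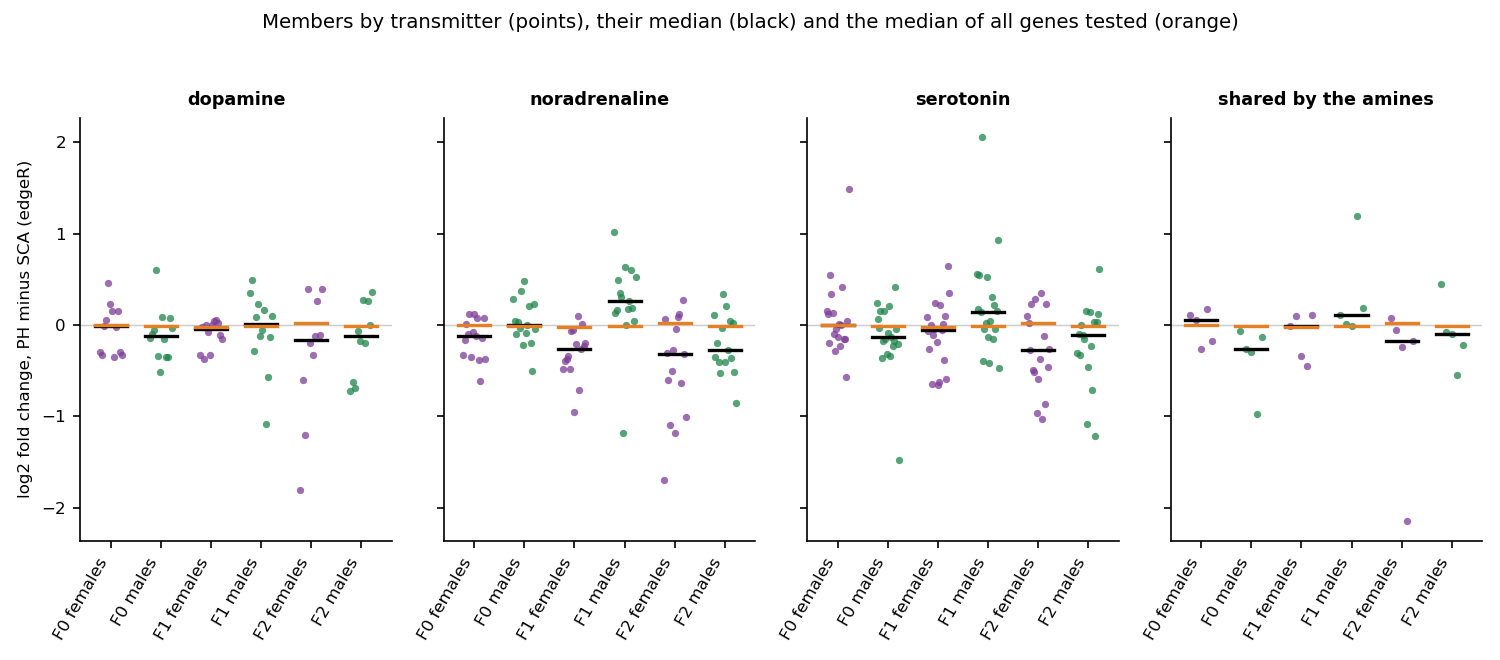
Log2 fold change, PH minus SCA, of each member tested (points, purple for females and green for males) in the 6 comparisons by generation and sex, split by transmitter, with the members' median in black and that of all genes tested in orange. The noradrenaline genes lie mostly below 0 in F1 females (median -0.26) and above 0 in F1 males (median 0.26), and in F2 females the medians of the dopamine, noradrenaline and serotonin genes are -0.16, -0.32 and -0.28.

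In F1 the noradrenaline genes lay on opposite sides of 0 in the sexes, without a call. Of the 15 noradrenaline genes tested in F1, 13 lay below 0 in females and 14 lay above 0 in males. All members leaned the same way, with 36 of 51 below 0 in females and 36 above 0 in males. Of all 18094 genes tested, 9665 lay below 0 in females and 8631 above 0 in males. The difference between the sexes in PH against SCA was itself tested, and 0 members were called in F1, where 0.0% of all genes were, 0 in F0 beside 0.0% and 0 in F2 beside 0.0114%. At an unadjusted p under 0.05 edgeR found 4 of 51 members in F1 (7.84%, beside 5.11% of all genes), 1 in F0 (1.96%, beside 3.2%) and 0 in F2 (beside 5.67%). The 4 of F1 were SLC6A2, ADRA1D, adra2db and ADRA2B, all noradrenaline genes and all lower in females than in males relative to SCA. DESeq2 found 4, 1 and 0 and limma voom 4, 1 and 1 at the same cut, and neither called any. The summed hypothalamus markers of F1 males had a median of 518 CPM in PH (358 to 884), against 281 CPM in SCA (158 to 370). Their cerebellum markers had 2860 against 4350 CPM and their telencephalon markers 416 against 311 CPM. In F1 females these medians were 416 against 352, 3620 against 3510 and 398 against 354 CPM. Their part in the F1 results here and below was not tested.

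Among the dopamine genes, those that make and carry the transmitter overlapped between PH and SCA fish in every generation and sex. TH (ENSDARG00000030621), tyrosine hydroxylase, the rate-limiting enzyme of dopamine and noradrenaline synthesis, averaged 10.7 ± 3.81 CPM in PH females and 8.98 ± 2.02 in SCA females, and 9.27 ± 1.74 in PH males and 13.2 ± 4.34 in SCA males of F0. TH in F1 averaged 9.7 ± 2.3 CPM in PH females and 12.1 ± 5.21 in SCA females, and 7.64 ± 0.47 in PH males and 8.28 ± 3.72 in SCA males. TH in F2 averaged 8.21 ± 0.858 CPM in PH females and 10.2 ± 2.84 in SCA females, and 11.1 ± 5.9 in PH males and 9.11 ± 2.85 in SCA males. The lowest and the highest group means, in F1 PH males and F0 SCA males, differed 1.73-fold, and no 2 neighbours among the 12 ordered group means were further apart than the larger of their SDs. One F2 fish stood apart: the 4 F2 PH males had 7.3, 9.15, 19.8 and 7.93 CPM, and the third of these, fish 11, was the highest of all 48.

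The second hydroxylase gene, th2 (ENSDARG00000038384), found in zebrafish but not in mammals, is known from hypothalamic cells and has also been described as a tryptophan hydroxylase. Its level was 4.46 ± 0.72 CPM in PH females and 5.48 ± 2.16 in SCA females, and 5.19 ± 3.8 in PH males and 5.16 ± 2.11 in SCA males of F0. th2 in F1 averaged 6.3 ± 4.52 CPM in PH females and 7.11 ± 1.45 in SCA females, and 10.2 ± 5.56 in PH males and 9.43 ± 3.25 in SCA males. th2 in F2 averaged 7.85 ± 2.07 CPM in PH females and 5.87 ± 0.728 in SCA females, and 7.34 ± 1.93 in PH males and 5.66 ± 1.99 in SCA males. Single F1 fish spanned the whole range of the series, with 0.588, 7.63, 5.56 and 11.4 CPM in PH females and 2.29, 15.4, 11.4 and 11.6 CPM in PH males. The lowest value came from PH female 1, the shallowest library.

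SLC6A3 (ENSDARG00000004219), the dopamine transporter that clears dopamine from the synapse, averaged 5.97 ± 2.28 CPM in PH females and 4.26 ± 0.572 in SCA females, and 2.8 ± 1.11 in PH males and 3.53 ± 1.35 in SCA males of F0. SLC6A3 in F1 averaged 6.8 ± 1.98 CPM in PH females and 7.18 ± 2.01 in SCA females, and 5.78 ± 3.66 in PH males and 4.89 ± 1.04 in SCA males. SLC6A3 in F2 averaged 3.08 ± 0.84 CPM in PH females and 3.46 ± 1.4 in SCA females, and 2.63 ± 1.07 in PH males and 2.97 ± 1.01 in SCA males. PH and SCA libraries overlapped in every generation and sex, and the log2 fold changes lay between -0.34 in F0 males and 0.46 in F0 females. Its difference between females and males is given further on.

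Among the dopamine receptors, the smallest unadjusted p of the founders' comparisons within a sex belonged to DRD3. DRD3 (ENSDARG00000032131), a receptor of the inhibitory D2 class, had 21.4, 16.3, 17.8 and 19.5 CPM in PH males, against 12.3, 9.91, 15 and 11.7 CPM in SCA males of F0. The groups did not overlap, with a log2 fold change of 0.60 ± 0.20 (SE) and an adjusted p of 0.734 in edgeR. Here and below, the share of all genes whose groups did not overlap was not counted, so non-overlap only describes the fish. In F0 females it had 21.5, 15.7, 20.6 and 11.8 CPM in PH females, against 21.5, 14.5, 16.9 and 13.4 CPM in SCA females, which overlapped, and the lanes of the F0 males named above cannot be told apart from their lineages. In F1 males drd4a, a D4 receptor gene, had 3.23, 2.39, 0.471 and 4.77 CPM in PH males, against 6.43, 6.05, 7.3 and 3.32 CPM in SCA males, with a log2 fold change of -1.09 ± 0.42 and an adjusted p of 0.45 in edgeR. Its sister drd4b had 2.19, 1.26, 2.47 and 0.814 CPM in PH males, against 2.85, 2.25, 2.74 and 2.21 CPM in SCA males (log2 -0.57 ± 0.32, adjusted p 0.634 in edgeR). Of the remaining receptors, drd4-rs in F0 females had an adjusted p of 0.981 in edgeR, with a log2 fold change of -0.35 ± 0.17.

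Among the noradrenaline genes, DBH (ENSDARG00000069446), dopamine beta-hydroxylase, which marks cells that make noradrenaline, averaged 2.74 ± 0.851 CPM in PH females and 3.49 ± 0.749 in SCA females, and 5.27 ± 1.42 in PH males and 4.49 ± 1.17 in SCA males of F0. DBH in F1 averaged 2.66 ± 1.02 CPM in PH females and 4.29 ± 0.733 in SCA females, and 3.66 ± 2 in PH males and 3.04 ± 0.774 in SCA males. DBH in F2 averaged 4.32 ± 0.645 CPM in PH females and 3.95 ± 2.21 in SCA females, and 5.88 ± 3.18 in PH males and 5.65 ± 1.01 in SCA males. None of these pairs passed the test in edgeR, with unadjusted p-values from 0.06 in F1 females to 0.925 in F2 males. As for TH, F2 PH male 11 was the highest fish of the 48, with 10.5 CPM beside 4.38, 3.48 and 5.14 in the other PH males of its generation.

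SLC6A2 (ENSDARG00000016141), the noradrenaline transporter, averaged 9.95 ± 3.75 CPM in PH females and 14.9 ± 8.41 in SCA females, and 16.6 ± 6.98 in PH males and 18.9 ± 8.68 in SCA males of F0. SLC6A2 in F1 averaged 10.1 ± 1.11 CPM in PH females and 12 ± 3.08 in SCA females, and 10.3 ± 1.36 in PH males and 6.74 ± 2.35 in SCA males. SLC6A2 in F2 averaged 12.1 ± 5.26 CPM in PH females and 18.6 ± 5.86 in SCA females, and 10.4 ± 3.83 in PH males and 13.3 ± 3.63 in SCA males. In F1 males the 4 fish of each lineage had 9.89, 11.3, 11.3 and 8.49 CPM in PH males, against 6.85, 3.8, 6.78 and 9.55 CPM in SCA males, a log2 fold change of 0.60 ± 0.23 with an adjusted p of 0.45 in edgeR. In F1 females the log2 fold change was -0.26 ± 0.23, and the difference between the sexes was -0.86 ± 0.33 with an adjusted p of 0.918 in edgeR. The highest single value, 31.6 CPM, came from F0 SCA male 6, one of the libraries that stood apart.

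The adrenergic receptors fall into the alpha-1 class, which acts through calcium, the alpha-2 class, which dampens release and cyclic AMP, and the beta class, which raises cyclic AMP. In F1 males adra2db, an alpha-2 receptor gene, had 7.08, 5.41, 6.24 and 6.04 CPM in PH males, against 4.74, 3.56, 5.34 and 3.6 CPM in SCA males. The groups did not overlap, the log2 fold change was 0.52 ± 0.24, and the adjusted p was 0.539 in edgeR. ADRA1D, an alpha-1 receptor, had 16.1, 18.5, 17.6 and 22.5 CPM in PH females, against 22.8, 19.9, 27.5 and 26.1 CPM in SCA females of F1, with a log2 fold change of -0.37 ± 0.18 and an adjusted p of 0.636 in edgeR. The widest spread among receptors with over 10 CPM was that of ADRB1, the beta-1 receptor, whose F1 PH males had 8.12, 2.27, 2.94 and 20.6 CPM, against 28.4, 17, 24.1 and 7.06 CPM in F1 SCA males. In F0 males adra1ab gave a log2 fold change of -0.51 ± 0.25 and an adjusted p of 0.831 in edgeR.

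Among the serotonin genes, TPH2 (ENSDARG00000057239), the tryptophan hydroxylase of raphe neurons, averaged 9.22 ± 2.58 CPM in PH females and 9.88 ± 2.54 in SCA females, and 10.7 ± 2.69 in PH males and 11.2 ± 6.29 in SCA males of F0. TPH2 in F1 averaged 8.7 ± 1.18 CPM in PH females and 13.4 ± 6.4 in SCA females, and 5.54 ± 2.96 in PH males and 7.37 ± 2.63 in SCA males. TPH2 in F2 averaged 8.98 ± 3.6 CPM in PH females and 11.4 ± 5.28 in SCA females, and 10.2 ± 5 in PH males and 9.11 ± 3.42 in SCA males. In F1 females the fish had 8.62, 7.1, 9.19 and 9.88 CPM in PH females, against 12.3, 18, 18.5 and 4.76 CPM in SCA females, so that the SCA females lay on both sides of all PH females. The summed level of 12 hindbrain and raphe marker genes also varied widely between fish. It was 5.81 to 119 CPM in PH fish and 3.51 to 83.7 CPM in SCA fish of F1 and F2. The same F1 females, in the same order, had summed levels of 2 pineal marker genes of 3.92, 1.86, 7.16 and 18.6 CPM in PH. In SCA these were 6.59, 24.3, 38.1 and 2.38 CPM. Within each lineage the pineal sums ranked these fish as TPH2 did. The part of either marker set in the TPH2 values was not tested.

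TPH1 (ENSDARG00000029432), a tryptophan hydroxylase that in zebrafish is used outside the raphe, averaged 8.31 ± 1.52 CPM in PH females and 8.38 ± 3.98 in SCA females, and 8.46 ± 1.88 in PH males and 10.4 ± 2.67 in SCA males of F0. TPH1 in F1 averaged 7.26 ± 4.89 CPM in PH females and 11.6 ± 2.57 in SCA females, and 8.46 ± 4.03 in PH males and 9.18 ± 1.27 in SCA males. TPH1 in F2 averaged 8.35 ± 3.88 CPM in PH females and 12.4 ± 3.92 in SCA females, and 4.78 ± 0.254 in PH males and 6.52 ± 1.53 in SCA males. In F2 males the PH fish lay close together, the SCA fish spread more widely, and the groups did not overlap. They had 4.96, 5.03, 4.56 and 4.55 CPM in PH males, against 6.89, 5.48, 8.53 and 5.18 CPM in SCA males. The log2 fold change was -0.46 ± 0.31 and the adjusted p 0.707 in edgeR. A further TPH1 gene (ENSDARG00000036082) had group means between 0.586 ± 0.36 CPM in F0 PH females and 1.18 ± 0.794 CPM in F2 PH males.

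SLC6A4 (ENSDARG00000061165), the serotonin transporter and the target of antidepressant drugs, averaged 1.99 ± 0.476 CPM in PH females and 2.39 ± 0.925 in SCA females, and 2.17 ± 1.16 in PH males and 2.38 ± 1.45 in SCA males of F0. SLC6A4 in F1 averaged 1.82 ± 1.01 CPM in PH females and 1.97 ± 1.1 in SCA females, and 1.17 ± 0.963 in PH males and 0.816 ± 0.133 in SCA males. SLC6A4 in F2 averaged 0.788 ± 0.62 CPM in PH females and 1.51 ± 0.776 in SCA females, and 0.665 ± 0.459 in PH males and 1.43 ± 0.525 in SCA males. In F2 females the log2 fold change was -0.96 ± 0.63 and in F2 males -1.08 ± 0.65, with adjusted p-values of 0.387 and 0.659 in edgeR. Fish at these low counts overlapped in both sexes.

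The second serotonin transporter gene, slc6a4b (ENSDARG00000057017), had differences of opposite sign in the 2 sexes of F0, at very low counts and without a call. F0 females had 0.668, 0.246, 1.24 and 1.46 CPM in PH females, against 0.382, 0.233, 0.364 and 0.247 CPM in SCA females. F0 males had 0.454, 0.858, 0.124 and 0.879 CPM in PH males, against 1.99, 0.367, 1.92 and 2.26 CPM in SCA males. The log2 fold change was 1.49 ± 0.67 in females (adjusted p 0.968 in edgeR) and -1.48 ± 0.59 in males (adjusted p 0.794). Both sexes overlapped between lineages, and the test of the difference between the sexes gave 2.97 ± 0.89 with an unadjusted p of 0.00433 and an adjusted p of 0.998 in edgeR. slc6a4b in F1 averaged 0.348 ± 0.284 CPM in PH females and 0.673 ± 0.333 in SCA females, and 0.483 ± 0.526 in PH males and 0.253 ± 0.234 in SCA males. slc6a4b in F2 averaged 0.578 ± 0.416 CPM in PH females and 0.899 ± 0.497 in SCA females, and 0.218 ± 0.147 in PH males and 0.371 ± 0.283 in SCA males.

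Among the serotonin receptors, HTR1A, an inhibitory receptor that also serves as an autoreceptor on serotonin neurons, had 9.78, 21.3, 14.6 and 13 CPM in PH males, against 10.9, 8.9, 11.3 and 8.44 CPM in SCA males of F1. The groups overlapped by a little, the log2 fold change was 0.56 ± 0.22 and the adjusted p 0.448 in edgeR. The fish with 21.3 CPM of HTR1A, PH male 6, also had the highest hypothalamus marker sum of its group, 884 CPM. In F0 males the same gene had 7.27, 9.69, 7.34 and 7.29 CPM in PH males, against 6.97, 5.87, 6.95 and 6.66 CPM in SCA males, which did not overlap (log2 0.24 ± 0.14, adjusted p 0.875 in edgeR). In F1 females htr7a, a receptor that raises cyclic AMP, had 2.55, 3.02, 2.89 and 3.81 CPM in PH females, against 5.58, 3.49, 4.52 and 4.76 CPM in SCA females, a log2 fold change of -0.59 ± 0.27 with an adjusted p of 0.609 in edgeR. In F2 males htr1fb had 0.584, 1.03, 0 and 0.587 CPM in PH males, against 0.827, 2.16, 1.38 and 0.915 CPM in SCA males (log2 -1.22 ± 0.55, adjusted p 0.545 in edgeR).

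Several receptors were named only as the members of smallest p in their direction, and none was near a call by edgeR. HTR2A (ENSDARG00000058165) in F0 females had a log2 fold change of 0.55 ± 0.35, HTR1A there 0.15 ± 0.14 and htr7b -0.57 ± 0.44. In F0 males htr2cl1 had -0.18 ± 0.13. In F1 females htr1aa had 0.22 ± 0.14 and htr7b 0.64 ± 0.50, and in F2 females htr2cl1 had 0.23 ± 0.12 and htr1aa 0.35 ± 0.20. In F2 males htr7c had 0.61 ± 0.51.

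Of the shared steps, DDC (ENSDARG00000016494), DOPA decarboxylase, averaged 15.2 ± 2.4 CPM in PH females and 17.8 ± 2.06 in SCA females, and 15.9 ± 2.37 in PH males and 19.4 ± 5.8 in SCA males of F0. DDC in F1 averaged 10.7 ± 2.48 CPM in PH females and 13.6 ± 3.11 in SCA females, and 11.4 ± 4.17 in PH males and 11.4 ± 2.07 in SCA males. DDC in F2 averaged 14 ± 0.472 CPM in PH females and 16.3 ± 1.57 in SCA females, and 14.6 ± 5.23 in PH males and 15.5 ± 1.68 in SCA males. In both F0 sexes together its log2 fold change was -0.28 ± 0.13, with an unadjusted p of 0.0476 and an adjusted p of 0.665 in edgeR. F0 SCA male 6, with 28 CPM, was the highest of the 48 fish.

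SLC18A2 (ENSDARG00000015110), the vesicular transporter that loads dopamine, noradrenaline and serotonin alike, averaged 1.39 ± 1.1 CPM in PH females and 1.21 ± 1.04 in SCA females, and 1.43 ± 1.02 in PH males and 2.79 ± 1.49 in SCA males of F0. SLC18A2 in F1 averaged 1.08 ± 0.867 CPM in PH females and 1.55 ± 0.362 in SCA females, and 1.12 ± 0.798 in PH males and 0.465 ± 0.297 in SCA males. SLC18A2 in F2 averaged 0.362 ± 0.188 CPM in PH females and 1.61 ± 1.33 in SCA females, and 0.754 ± 0.69 in PH males and 1.13 ± 0.54 in SCA males. Its lowest group mean, in F2 PH females, and its highest, in F0 SCA males, differed 7.71-fold. No 2 neighbours among its ordered group means were further apart than the larger of their SDs.

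Among the members with a within-group coefficient of variation, monoamine oxidase had the lowest, and it also had the most counts. In zebrafish 1 gene, mao (ENSDARG00000023712), encodes monoamine oxidase, and it averaged 80.2 ± 9.58 CPM in PH females and 89.5 ± 12.6 in SCA females, and 72.8 ± 3.09 in PH males and 78.5 ± 10.6 in SCA males of F0. mao in F1 averaged 98.4 ± 10.2 CPM in PH females and 90.7 ± 4.88 in SCA females, and 100 ± 18.7 in PH males and 87.9 ± 3.67 in SCA males. mao in F2 averaged 95.2 ± 11.5 CPM in PH females and 106 ± 5.01 in SCA females, and 76.9 ± 12.1 in PH males and 89.2 ± 2.52 in SCA males. Group means differed at most 1.46-fold, and the mean within-group coefficient of variation was 9.81%, beside 66.9% for SLC18A2 and 38.2% for TPH2. Counting noise alone, at the mean count, would give 3.77% for mao, 31.5% for SLC18A2 and 11.5% for TPH2. Both F2 sexes together gave a log2 fold change of -0.20 ± 0.08 with an adjusted p of 0.15 in edgeR.

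**Figure D2:**
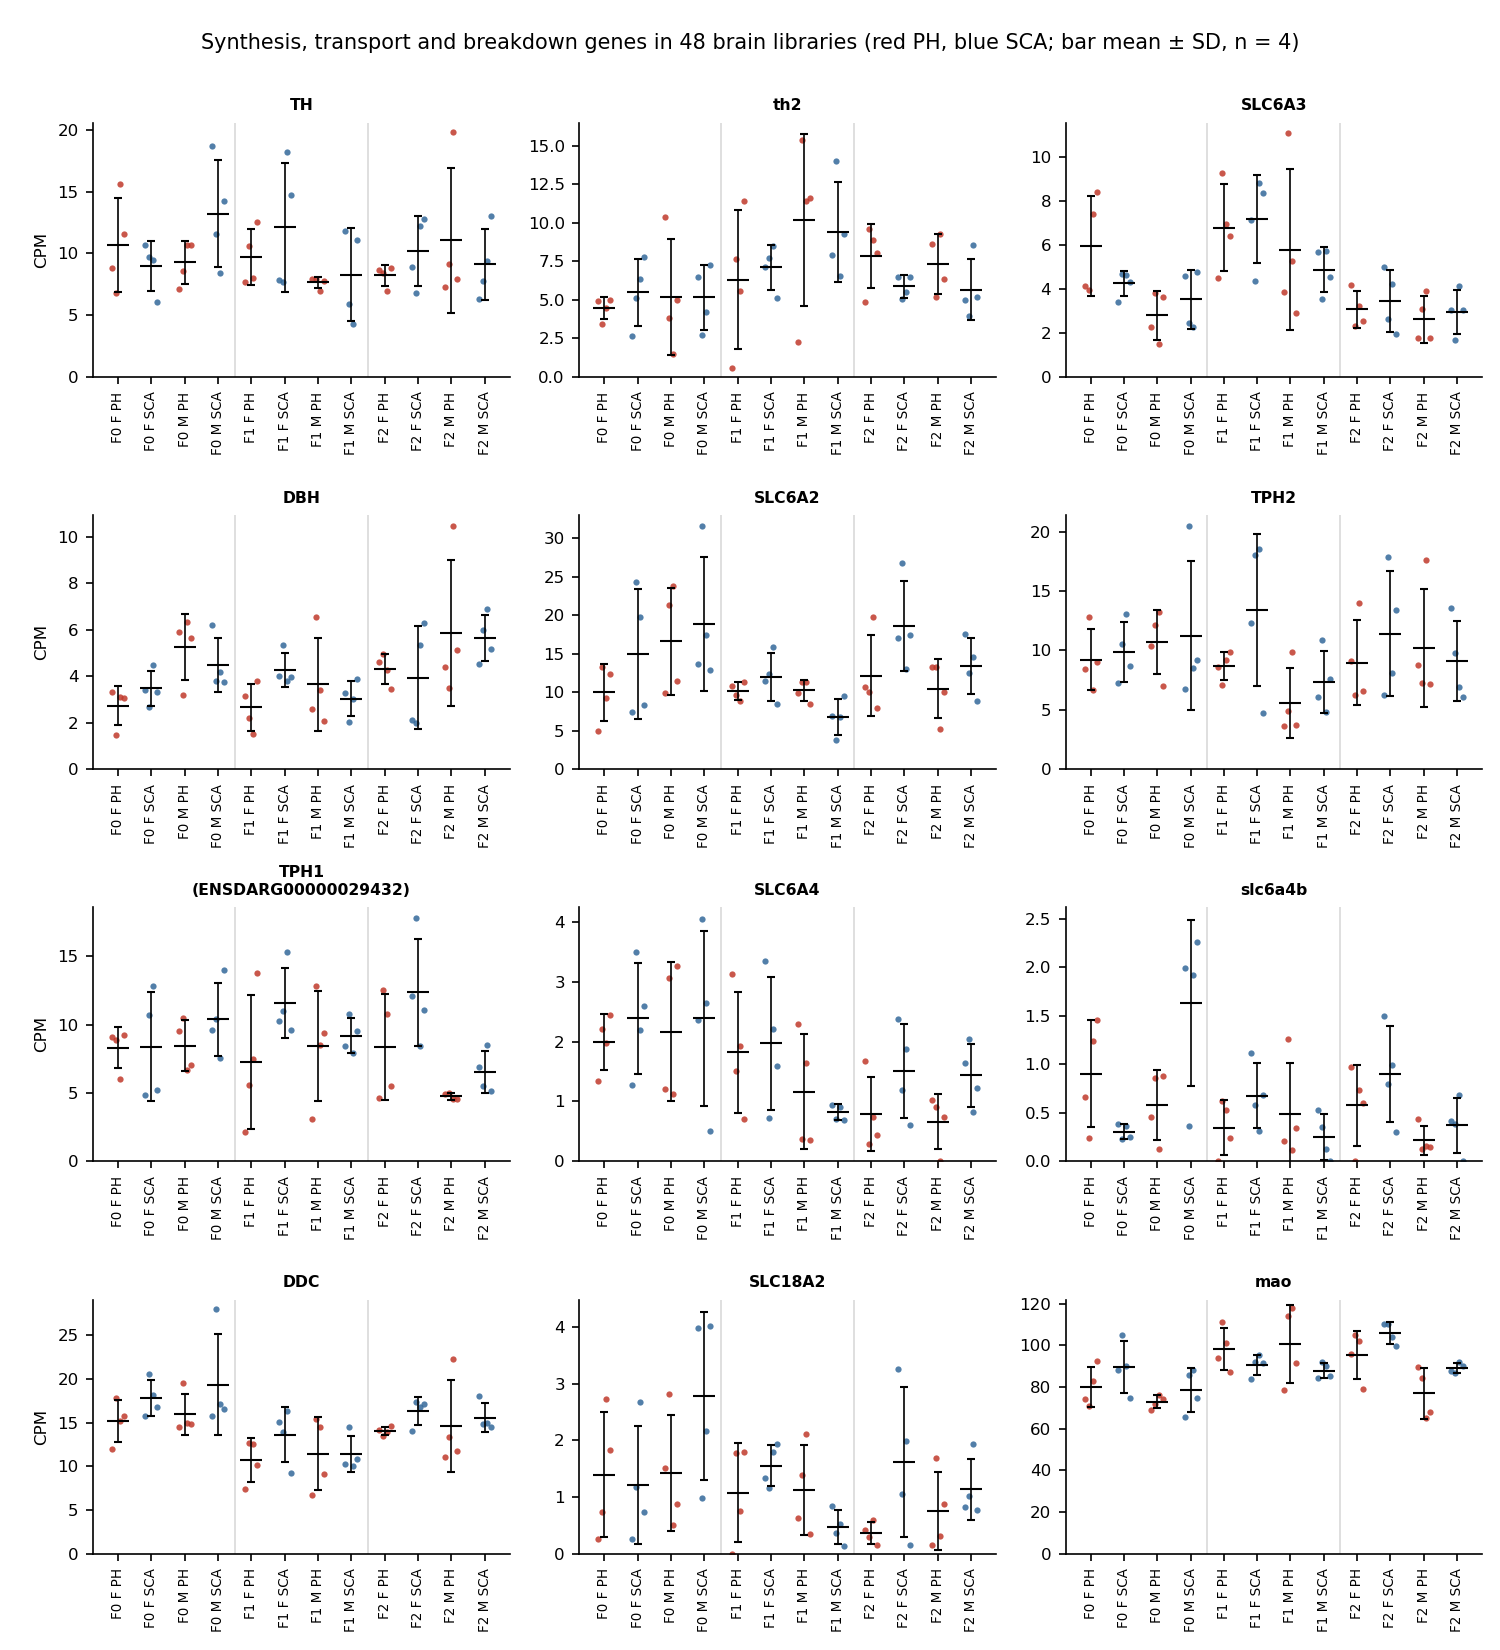
Level in CPM of 12 synthesis, transport and breakdown genes in each of the 48 libraries (points, red for PH and blue for SCA), with mean ± SD of the 4 fish of each group. PH and SCA fish overlap in nearly every pair, mao spans the narrowest range for its level, and F2 PH male 11 is the top point for TH (19.8 CPM) and DBH (10.5 CPM).

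Over the unexposed descendants of both generations, a dopamine receptor was the member called. In the 16 PH fish of F1 and F2, DRD2 (ENSDARG00000056926), an inhibitory dopamine receptor, had a median of 3.25 CPM (lowest 0.629, highest 5.77), against a median of 5.27 CPM (lowest 1.68, highest 9.38) in the 16 SCA fish. It fell by 0.63 on the log2 scale in PH fish, with an SE of 0.19 and an adjusted p of 0.0482 in edgeR's quasi-likelihood test over all 48 libraries. This was 1 of 54 members (1.85%), beside 4.61% of all genes tested, and 10 members (18.5%) beside 24.5% of all genes had an unadjusted p under 0.05. The call lies at the threshold: it was lost in 39 of the 48 fits that each left out 1 library, with adjusted p-values from 0.018 to 0.114, and in limma voom, with no filter on low counts and without the libraries that stood apart (0.0966), while DESeq2 kept it (0.0227).

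ADRA2B (ENSDARG00000102096), an alpha-2 adrenergic receptor, came next. Its median was 10.2 CPM in the 16 PH fish (lowest 5.38, highest 14.4), against 13.5 CPM in the 16 SCA fish (lowest 6.37, highest 25.9). The log2 fold change was -0.43 ± 0.13, with an adjusted p of 0.0526 in edgeR and 0.0292 in DESeq2. The pooled medians of the 3 systems were -0.12 for dopamine, -0.17 for noradrenaline and -0.07 for serotonin, beside 0.00 for all genes tested. The summed hypothalamus markers had a median of 416 CPM in these PH fish, against 334 CPM in SCA fish, and the telencephalon markers 396 CPM in PH fish, against 348 CPM in SCA fish, and their part in the result was not tested.

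By single groups, DRD2 had its lowest mean in F2 PH females. In F2 females DRD2 (ENSDARG00000056926) had 2.93, 3.05, 2.51 and 2.54 CPM in PH females, against 9.38, 5.44, 7.1 and 3.01 CPM in SCA females. The 4 PH females lay close together and SCA female 9 lay among them, so the groups overlapped by that fish. In F2 males it had 3.07, 4.9, 0.629 and 3.38 CPM in PH males, against 5.65, 7.77, 4.27 and 1.68 CPM in SCA males, which overlapped. The log2 fold change was -1.20 ± 0.49 in F2 females, -0.69 ± 0.49 in F2 males, -0.37 ± 0.32 in F1 females and -0.29 ± 0.32 in F1 males, with adjusted p-values of 0.188, 0.718, 0.836 and 0.858 in edgeR. In F0 it was -0.01 ± 0.26 in females and -0.06 ± 0.26 in males.

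ADRA2B in F2 females was 9.35, 12.8, 8.13 and 5.38 CPM in PH females, against 23.5, 14.9, 25.9 and 10.5 CPM in SCA females, again with SCA female 9 as the lowest of its group. In F2 males it was 9.2, 11.2, 5.66 and 11.6 CPM in PH males, against 12.3, 13.9, 15 and 13.1 CPM in SCA males, which did not overlap. The log2 fold change was -1.10 ± 0.30 in F2 females (adjusted p 0.123 in edgeR) and -0.53 ± 0.30 in F2 males (adjusted p 0.649). In F2 females an adjusted p under 0.05 was reached in DESeq2 (0.0268), in a fit of all 48 libraries (0.0414) and without SCA female 9 (0.038), and the range over all 25 alternatives was 0.0268 to 0.328.

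The other DRD2 gene (ENSDARG00000011091) did not overlap between the lineages of F2 in either sex, without passing the edgeR test. F2 females had 3.77, 3.49, 4.29 and 3.88 CPM in PH females, against 5.63, 6.37, 5.61 and 5.41 CPM in SCA females. F2 males had 2.77, 2.96, 1.42 and 2.06 CPM in PH males, against 4, 3.82, 3.03 and 3.35 CPM in SCA males. The adjusted p in edgeR was 0.149 in F2 females and 0.414 in F2 males. Both sexes together gave a log2 fold change of -0.61 ± 0.15 with an adjusted p of 0.068 in edgeR, 0.0244 in DESeq2. In F1 males the direction was the opposite, 0.49 ± 0.27, and a test of whether the 3 generations of males differed gave an unadjusted p of 0.0135 and an adjusted p of 0.357 in edgeR.

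Further receptors and the vesicular transporter had lower means in F2 PH females without passing the test. HTR5A (ENSDARG00000068557), a serotonin receptor, had 8.51, 6.68, 7.09 and 8.07 CPM in PH females, against 10.3, 11.3, 10.2 and 11.1 CPM in SCA females, with no overlap, and a log2 fold change of -0.52 ± 0.15 with an adjusted p of 0.132 in edgeR. DRD1 (ENSDARG00000038918), a receptor that raises cyclic AMP, had 0.558, 1.16, 0.148 and 0.448 CPM in PH females, against 2.38, 1.59, 3.24 and 0.902 CPM in SCA females (log2 -1.81 ± 0.71, adjusted p 0.174 in edgeR). SLC18A2 had 0.419, 0.291, 0.591 and 0.149 CPM in PH females, against 3.25, 1.06, 1.99 and 0.15 CPM in SCA females (log2 -2.15 ± 0.78, adjusted p 0.153 in edgeR). For both DRD1 and SLC18A2, SCA female 9 fell within the PH range. Without that fish edgeR called SLC18A2 (adjusted p 0.044), ADRA1D (0.0468) and ADRA2B in F2 females, 3 of 50 members (6.0%), beside 6.99% of all genes tested. The cerebellum markers of SCA female 9 summed to 4730 CPM, beside 2750, 3070 and 3150 CPM in the other F2 SCA females. In F2 PH females they summed to 3420 to 4770 CPM. Its hypothalamus markers summed to 200 CPM, beside 428, 280 and 323 CPM in the other F2 SCA females. The part of these markers was not tested.

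Both F2 sexes together held the most members at a small unadjusted p among the comparisons of lineages. At an unadjusted p under 0.05 there were 14 of 47 (29.8%), beside 23.7% of all genes tested. Of the 47, 34 lay below 0, beside 8497 of all 17505 genes tested. Those 14 were all lower in PH fish. They included DRD1 and both DRD2 genes, ADRA1D, ADRA2B and adra2db, HTR5A (ENSDARG00000068557), htr1b, htr1fb, SLC6A4, SLC18A2, TPH1 (ENSDARG00000029432) and mao. The summed hindbrain and raphe markers of F2 had a median of 45 CPM in PH fish (18.4 to 119), against 77.7 CPM in SCA fish (3.51 to 83.7), and the cerebellum markers 4500 CPM in PH fish, against 3840 CPM in SCA fish, and their part in these values was not tested.

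**Figure D3:**
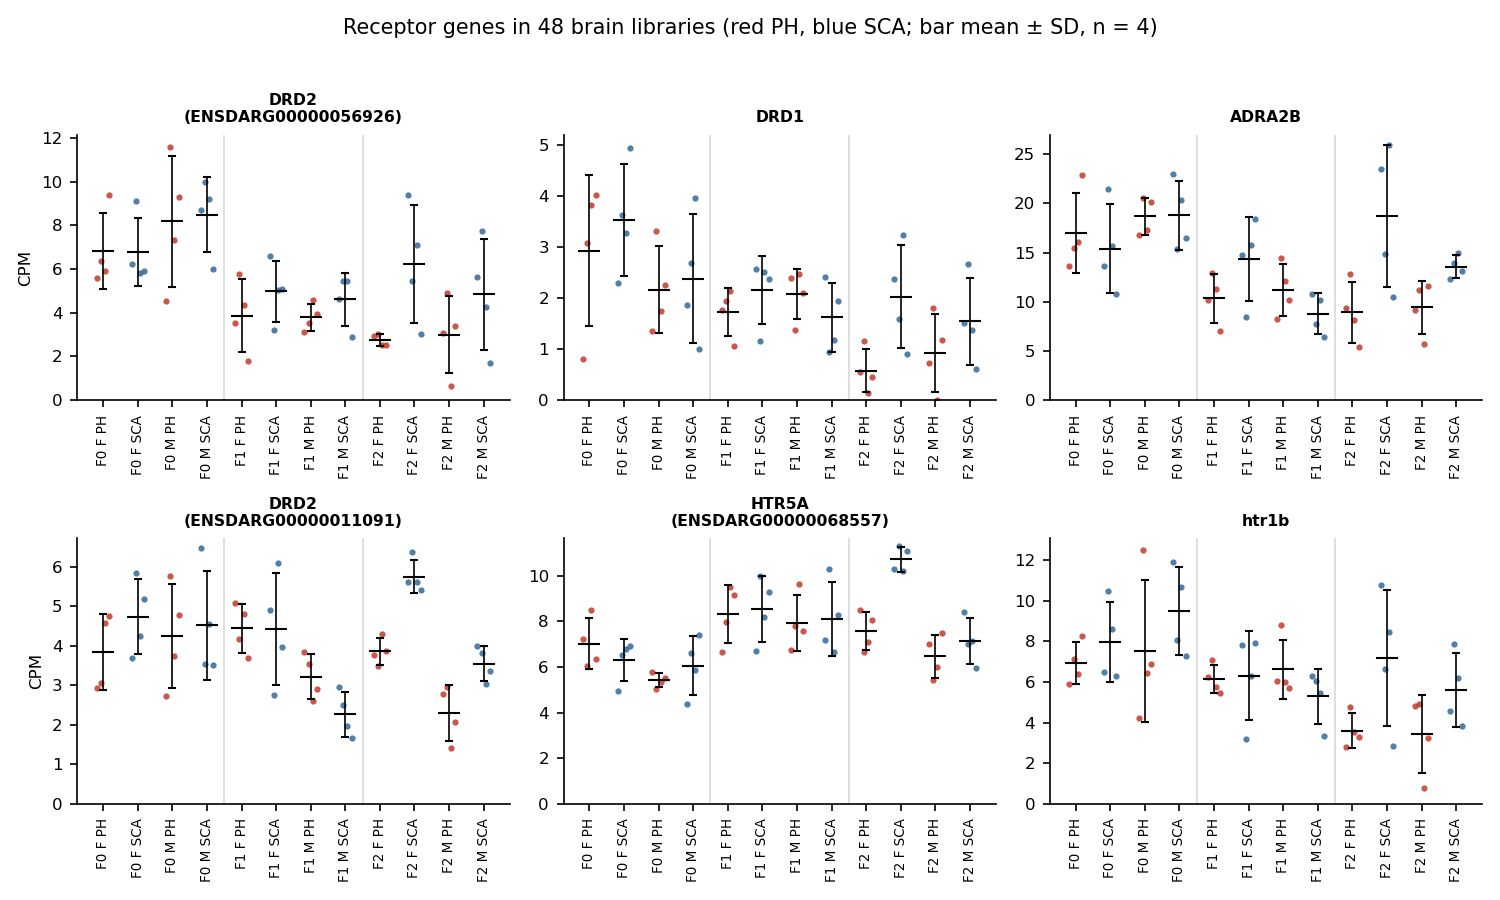
Level in CPM of 6 receptor genes in each of the 48 libraries (points, red for PH and blue for SCA), with mean ± SD of the 4 fish of each group. For DRD2 (ENSDARG00000056926) the F2 PH females lie between 2.51 and 3.05 CPM, against 3.01 to 9.38 CPM in F2 SCA females, and the F0 groups overlap.

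No member's lineage difference was shown to vary between the 3 generations. The joint edgeR test called 0 of 54 members in females, beside 0.178% of all genes, and 0 in males, beside 0.21%, and DESeq2 and limma voom called 0 in each. At an unadjusted p under 0.05 all 3 tools found 3 members in females and 6 in males. By edgeR that was 5.56% of members in females, beside 11.4% of all genes, and 11.1% in males, beside 9.26%. In edgeR the 3 members of females were ADRA2B (unadjusted p 0.00876, adjusted 0.306), HTR4 and HTR5A (ENSDARG00000068557). The pooled call for DRD2 (ENSDARG00000056926) is therefore not shown to belong to one generation.

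More members were called between the sexes than between the lineages, and the same held for all genes (1660, beside 878 over F1 and F2). The members' share was close to that of all genes. Over the 24 females and 24 males, with generation and lineage held fixed, edgeR called 5 of 54 members (9.26%), beside 8.71% of all genes tested. Females were higher for DRD2 (ENSDARG00000011091), drd4b, HTR5A (ENSDARG00000068557) and mao and lower for ADRA1B (ENSDARG00000041173). DESeq2 and limma voom called 6 members each, and of all genes 1945 and 1645. The members' median log2 difference, females minus males, was 0.10, beside 0.01 over all genes tested.

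The largest of these was in DRD2 (ENSDARG00000011091). Females had a median of 4.43 CPM (lowest 2.76, highest 6.37), against 3.19 CPM in males (lowest 1.42, highest 6.47). It was higher in females by 0.46 ± 0.10 on the log2 scale, with an adjusted p of 0.00144 in edgeR, and the female mean was the higher one in 5 of the 6 pairs of groups. The difference was -0.03 ± 0.17 in F0, 0.71 ± 0.17 in F1 and 0.71 ± 0.18 in F2. Whether it varied between generations was not tested. The other DRD2 gene (ENSDARG00000056926) had the higher mean in females in 3 of the 6 pairs.

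The D4 receptor gene drd4b had a median of 2.64 CPM in females (1.33 to 4.76), against 2.19 CPM in males (0.814 to 3.11). The log2 difference was 0.44 ± 0.13 with an adjusted p of 0.022 in edgeR, and females had the higher mean in all 6 pairs of groups. For drd4b it was 0.53 in F0 alone (adjusted p 0.182 in edgeR) and only 0.09 in F2 alone (0.966). SLC6A3, the dopamine transporter, also had the higher female mean in all 6 pairs, with a median of 4.43 CPM in females (1.95 to 9.31), against 3.6 CPM in males (1.49 to 11.1). Its log2 difference of 0.44 ± 0.15 missed the threshold with an adjusted p of 0.0565 in edgeR and passed it in DESeq2 (0.0385) and limma voom (0.0325). One F1 PH male had 11.1 CPM, and without that fish the adjusted p was 0.0113 in edgeR.

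The alpha-1 receptor ADRA1B (ENSDARG00000041173) was lower in females, with a median of 2.6 CPM (1.46 to 3.91), against 3.52 CPM in males (1.57 to 5.61). The female mean was lower in all 6 pairs, and the log2 difference was -0.45 ± 0.10, with an adjusted p of 0.00301 in edgeR. The difference was widest in F1, where the 8 females had 1.82 to 3.91 CPM, against 3.18 to 5.61 CPM in the 8 males. On the log2 scale it was -0.28 in F0 alone and -0.38 in F2 alone, without a call (adjusted p 0.465 and 0.525 in edgeR). The second ADRA1B gene (ENSDARG00000011317) had the higher female mean in 4 of the 6 pairs.

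The serotonin receptor HTR5A (ENSDARG00000068557) had a median of 8.03 CPM in females (4.96 to 11.3), against 6.88 CPM in males (4.36 to 10.3). It was higher in females in all 6 pairs, by 0.24 ± 0.07 on the log2 scale, with an adjusted p of 0.0204 in edgeR, or 0.0576 without the libraries that stood apart. Within single generations the difference was 0.22 in F0, 0.08 in F1 and 0.41 in F2, without a call (adjusted p 0.347, 0.738 and 0.138 in edgeR). Monoamine oxidase, mao, had a median of 93.2 CPM in females (71.1 to 111), against 85.6 CPM in males (65.3 to 118). Its log2 difference was 0.15 ± 0.05, with an adjusted p of 0.0283 in edgeR, and females had the higher mean in 5 of the 6 pairs. By generation it was 0.17 in F0, 0.01 in F1 and 0.28 in F2, without a call (adjusted p 0.263, 0.97 and 0.134 in edgeR). The call of mao over all fish was lost in 7 of the 48 fits that each left out 1 library, with an adjusted p of at most 0.0642. It was also lost with no filter on low counts (0.0525) and without the libraries that stood apart (0.0508). DBH had the opposite direction, with a log2 difference of -0.37 ± 0.14 and an adjusted p of 0.104 in edgeR.

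Females and males were also compared within each generation, an addition made after the data were seen, and whether their difference varied between generations was not tested. In F1 edgeR called 5 members (9.26%), beside 5.11% of all genes tested: DRD2 (ENSDARG00000011091), ADRA1B (ENSDARG00000041173), drd4b, HTR1A and htr1aa. It called 0 in F0, beside 4.84%, and 0 in F2, beside 0.178%. At an unadjusted p under 0.05 there were 6 in F0 (11.1%, beside 16.7% of all genes) and 8 in F2 (14.8%, beside 9.01%). HTR1A had 8.65 CPM as the median of 8 F1 females, against 11.1 CPM in 8 F1 males (log2 -0.50 ± 0.13, adjusted p 0.0181 in edgeR). Its relative htr1aa had 27.5 CPM in F1 females, against 38.8 CPM in F1 males (log2 -0.46 ± 0.12, adjusted p 0.0195 in edgeR). In F2 the difference of htr1aa had the opposite sign, 0.24 ± 0.12. The eye markers had a median of 107 CPM over all females, against 40.6 CPM over all males, and the cerebellum markers 3740 CPM in females, against 4230 CPM in males, and their part in these results was not tested. The region markers of the F1 groups are given above, and their part was not tested either.

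**Figure D4:**
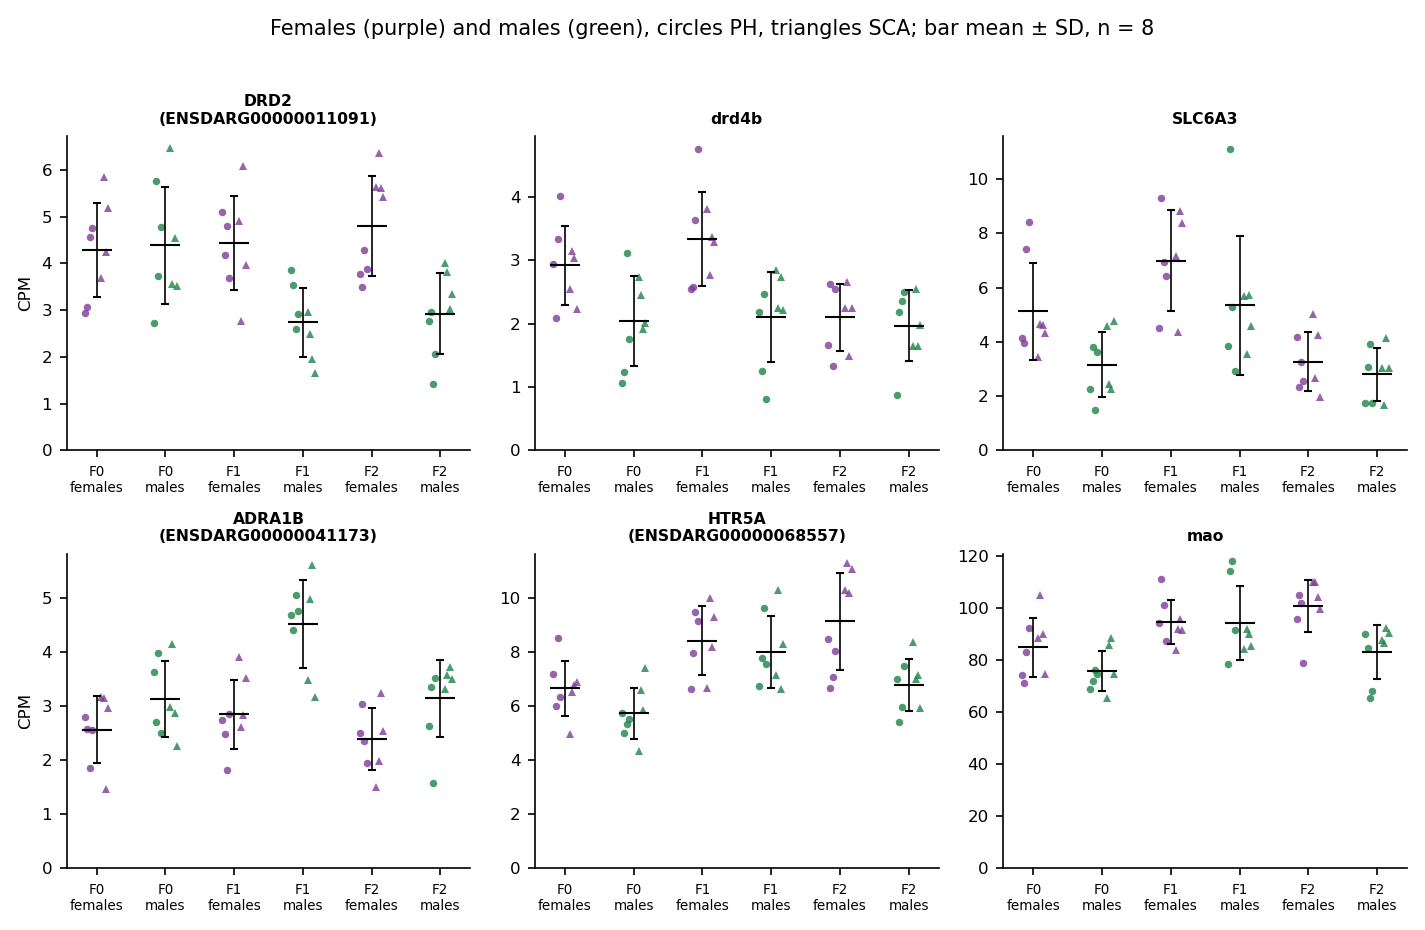
Level in CPM of the 5 members called between females and males, and of SLC6A3, by generation (purple females, green males, circles PH, triangles SCA), with mean ± SD of the 8 fish of each sex. ADRA1B is lower in F1 females (1.82 to 3.91 CPM) than in F1 males (3.18 to 5.61 CPM), and the PH and SCA points of a sex mingle for most genes.

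Some of these genes varied together from fish to fish within groups. Each gene's log2 CPM was taken less its group mean, and 18 pairs were compared over the 48 fish by Pearson's r and Spearman's rho with permutation of fish within groups (two-sided, p adjusted over the 18 pairs). In 5 pairs both measures passed an adjusted p of 0.05. The 2 values of a fish share its library and depth, and the summed region markers of single fish are given where they stand apart.

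The dopamine transporter SLC6A3 and the vesicular transporter SLC18A2 gave r = 0.66 and rho = 0.64 (adjusted permutation p 0.00027 and 0.00063). Without the 2 fish farthest from the median of SLC6A3, r was 0.67, and without the libraries that stood apart it was 0.71. Within single generations of 16 fish r was 0.75 in F0, 0.66 in F1 and 0.59 in F2. For TH with SLC6A3 r was 0.38 (adjusted permutation p 0.0401, or 0.0604 without the 2 farthest fish), and for TH with SLC18A2 it was 0.12 (0.705).

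The dopamine receptors DRD1 and DRD2 (ENSDARG00000056926) gave r = 0.71 and rho = 0.62 (adjusted permutation p 0.00018 and 0.00054), where 1e-05 is the smallest unadjusted p that the 100000 permutations can give. Within generations r was 0.60 in F0, 0.36 in F1 and 0.89 in F2. The lowest fish for both was F2 PH male 11, with 0 CPM of DRD1 and 0.629 CPM of DRD2. In that fish the cerebellum markers summed to 7000 CPM, the most of 48, and the telencephalon markers to 252 CPM. Without the 2 fish farthest from the median of DRD1, which include it, r was 0.64.

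The hydroxylase genes th2 and TPH1 (ENSDARG00000029432) gave r = 0.71 and rho = 0.56 (adjusted permutation p 0.00144 and 0.00384). This rests in part on 2 F1 fish: PH female 1 had 0.588 CPM of th2 and 2.15 CPM of TPH1, and PH male 4 had 2.29 and 3.12 CPM. Their hypothalamus markers summed to 259 and 512 CPM. Without those 2 fish r was 0.45 (adjusted permutation p 0.0359). By generation r was 0.34 in F0, 0.94 in F1 and 0.50 in F2.

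For noradrenaline, TH and DBH gave r = 0.44 and rho = 0.41 (adjusted permutation p 0.0223 and 0.0379), and without the 2 farthest fish the adjusted permutation p was 0.0642. TH with SLC6A2 gave r = -0.17 over all fish and -0.83 in F2 alone (adjusted permutation p 0.00765), beside 0.33 in F1 and 0.03 in F0. DBH with SLC6A2 gave 0.58 in F1 (adjusted permutation p 0.0319), beside -0.54 in F2. For serotonin, no tested pair that held TPH2 or SLC6A4 passed. TPH2 with SLC6A4 gave r = -0.04, and TPH2 with FEV, a transcription factor of serotonin neurons, gave 0.05.

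**Figure D5:**
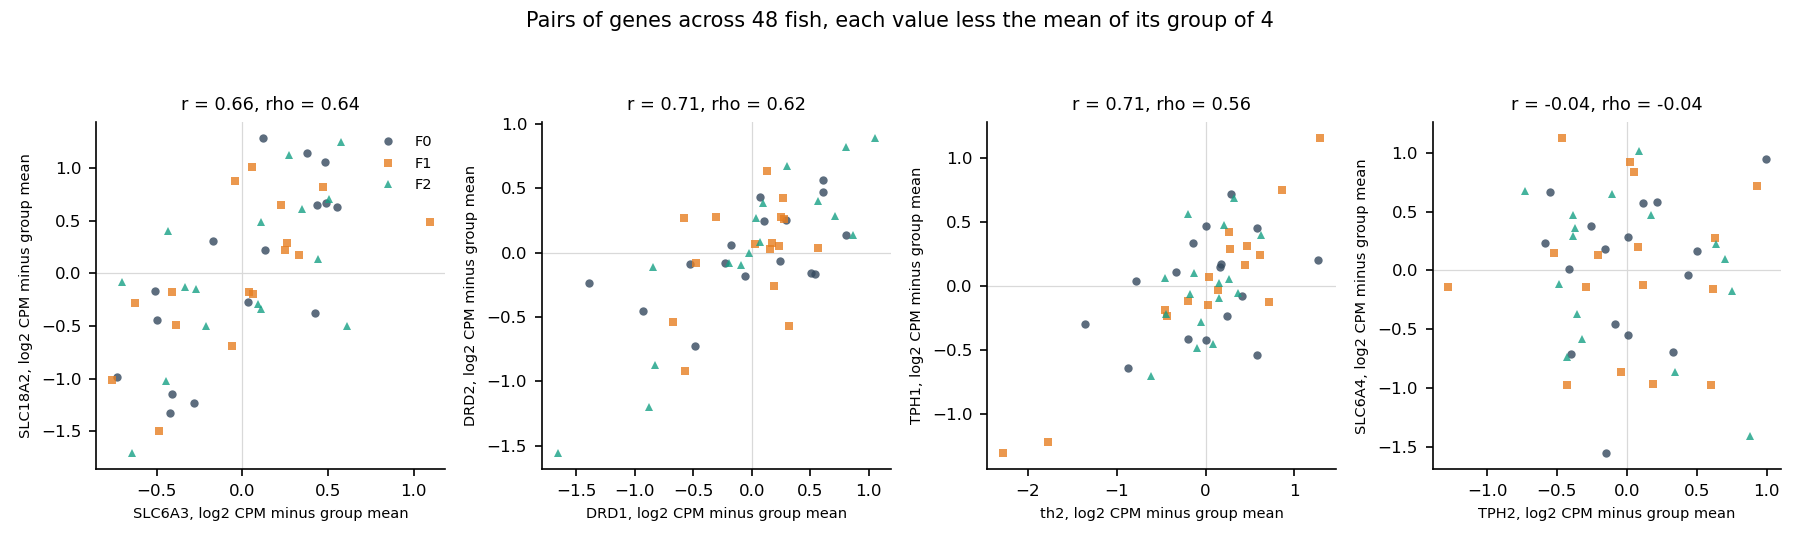
Log2 CPM less the group mean of 2 genes in each of 48 fish (circles F0, squares F1, triangles F2), with Pearson's r and Spearman's rho above each panel. SLC6A3 and SLC18A2, DRD1 and DRD2 (ENSDARG00000056926), and th2 and TPH1 (ENSDARG00000029432) rise together, the last with 2 F1 fish far from the rest, and TPH2 and SLC6A4 do not (r = -0.04).

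Genes around the transmitters were given by a list of 79, of which 67 to 71 were tested in a fit: the tetrahydrobiopterin cofactor of the hydroxylases, identity factors of amine neurons, signal partners of the receptors, further breakdown and uptake, and histamine. In both F2 sexes together edgeR called 2 of 67 (2.99%), beside 1.1% of all genes tested, both higher in PH fish. EN2 (ENSDARG00000026599), a transcription factor of the midbrain-hindbrain region, averaged 88.3 ± 12.3 CPM in PH fish and 66.1 ± 13.2 CPM in SCA fish (SD, n = 8 each, log2 0.41 ± 0.08, adjusted p 0.0284 in edgeR). PARK7, a protein that guards against oxidative stress, averaged 37.3 ± 3.93 CPM in PH fish and 29.6 ± 3.17 CPM in SCA fish (log2 0.32 ± 0.07, adjusted p 0.033 in edgeR). EN2 is also transcribed in the cerebellum, whose summed markers in F2 are given above, and their part was not tested.

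Over F1 and F2 together PARK7 was the only one of 71 listed genes (1.41%, beside 4.61% of all genes tested) that edgeR called, with 39.9 ± 5.39 CPM in PH fish and 34.7 ± 6.95 CPM in SCA fish (log2 0.21 ± 0.05, adjusted p 0.0192). Between the sexes edgeR called 3 of 71 (4.23%), beside 8.71% of all genes tested, all lower in females: ARRB2 (ENSDARG00000011545), an arrestin that desensitises receptors (log2 -0.17 ± 0.04, adjusted p 0.00211), PARK7 (log2 -0.20 ± 0.04, adjusted p 0.00214) and calm1a, a calmodulin gene (log2 -0.14 ± 0.04, adjusted p 0.0135). In all other comparisons edgeR called 0 of the listed genes. The smallest unadjusted p in F0 males belonged to HDC, which makes histamine, with 34.1 ± 12.1 CPM in PH fish and 19.3 ± 3.07 CPM in SCA fish (log2 0.80 ± 0.23, adjusted p 0.734 in edgeR), and to OTP (ENSDARG00000058379), a factor of hypothalamic dopamine neurons, in the other direction (log2 -0.82 ± 0.29, adjusted p 0.77). In F1 females it was hrh3, a histamine receptor that also dampens the release of other amines, with 59.5 ± 8.61 CPM in PH fish and 101 ± 26.9 CPM in SCA fish (log2 -0.77 ± 0.19, adjusted p 0.178 in edgeR).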

How the data were processed

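Whole-brain RNA of 48 zebrafish was sequenced in paired ends on a BGISEQ-500, 4 libraries in each of 12 groups, per the labels' protocols. The deposited files hold whole-number counts of reads per gene, and the submitters' processing notes name STAR 2.7, HTSeq 0.11.2, DESeq2 1.24.0 and the build GRCz11. Of the reads in the tables, 31.35 to 36.64% were assigned to a gene, 60.34 to 65.43% to no feature, 2.40 to 3.12% not uniquely and 0.306 to 0.602% ambiguously, and rows that name no gene were left out of totals and tests. Whether counting used strand is not given in the sources used here, and so overlapping and antisense genes cannot be told apart. Reads that did not align uniquely were counted to no gene, so near-identical copies could be undercounted.

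Symbols came from a table pairing Ensembl identifiers with names, which named 29201 of 32520 genes. The members and lists were chosen with earlier results of these data known. Counts were fitted with edgeR 4.0.16 in R 4.3.3 (quasi-likelihood, TMM scaling, filterByExpr), with 16 libraries per generation for PH against SCA and all 48 for the comparison over F1 and F2, between generations and between sexes. P-values were adjusted by Benjamini-Hochberg over all genes tested at 0.05. Log2 fold changes are PH minus SCA or females minus males, each ± SE. Alternatives were DESeq2 1.42.0, limma 3.58.1 (voom), RLE factors, no filter, all 48 libraries in the fit, leaving out each library, and leaving out 5 libraries reported to stand apart. The females and males of single generations were compared as an addition after the data were seen. Libraries of a group differed beyond counting noise, with chi-square per degree of freedom of 4.78 to 52.1 over 72 pairs. Values were given for all synthesis, transport and breakdown genes, for receptors called in any comparison, and else for the 2 receptors of smallest p in each direction. A few more receptors whose values are given were chosen after their values were seen. A few members counted here are not reported by name. The fitting was tested on simulated data.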

Additional observations from a re-analysis of the deposited data

Results flagged for a closer look

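In 18 members with a mean of at least 1 CPM (enzymes, transporters and the called receptors), each group of 4 fish was searched for a fish far from the other 3 (a gap to the nearest fish that took up most of the group's range, by Dixon's 95% criterion). Of 216 groups, 13 (6.02%) held one, and chance flags about 1 in 20 groups. F2 PH male 11 stood above its group for TH, with 19.8 CPM beside 7.3 to 9.15 CPM, and for TPH2, with 17.6 CPM beside 7.2 to 8.76 CPM. F1 PH male 7 was low for TH (6.95 CPM beside 7.79 to 7.93). F0 PH female 10 was low for DBH (1.48 CPM beside 3.05 to 3.34) and F1 SCA female 6 was high (5.37 CPM beside 3.78 to 4.02). F0 PH female 15 was low for TPH1 (ENSDARG00000029432), with 6.05 CPM beside 8.85 to 9.27.

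Among receptors, F0 SCA female 15 was high for DRD2 (ENSDARG00000056926), with 9.1 CPM beside 5.83 to 6.23, and F0 SCA female 16 was low for ADRA1B (ENSDARG00000041173), with 1.46 CPM beside 2.97 to 3.18. DDC had 5 such fish. F0 PH male 17 had 19.5 CPM beside 14.5 to 14.9, F0 SCA male 6 had 28.0 CPM beside 15.7 to 17.1, and F1 SCA male 10 had 14.5 CPM beside 10.0 to 10.8. F2 SCA female 4 had 14 CPM beside 16.8 to 17.4, and F2 SCA male 3 had 18 CPM beside 14.5 to 14.9.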

How the results depend on the processing

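No member's fold change that had an unadjusted p under 0.05 changed sign under another tool, scaling, filter or set of libraries. Within single generations the female minus male difference did for DRD2 (ENSDARG00000011091), at -0.03 in F0, for DBH, at 0.01 in F1, and for HTR1A, at 0.09 in F2. In F2 females, where edgeR called 0 members, DESeq2 called 1, a fit of all 48 libraries 1, and fits without 1 library 0 to 3, the 3 without SCA female 9. Of all genes there, edgeR called 24, DESeq2 543 and the fit of all 48 libraries 346. With lane as a covariate edgeR called 0 of all genes, without PH females 3 and 4 it called 0, and without the libraries that stood apart 12. In both F2 sexes together, DESeq2 called 3, the fit of all 48 libraries 5, and fits without 1 library 0 to 4. Calls over all genes were 193 in edgeR, 951 in DESeq2 and 938 in the fit of all 48 libraries. They fell to 55 with lane as a covariate, 21 without PH females 3 and 4, and 67 without the libraries that stood apart. Over F1 and F2 the 1 call became 2 in DESeq2 and 0 in limma voom, with no filter and without the libraries that stood apart, and 0 to 2 without single libraries. Calls over all genes went from 878 to 1376 in DESeq2, 704 in limma voom, 555 with no filter and 504 without the libraries that stood apart. Between females and males the 5 calls became 3 without the libraries that stood apart, 0 in F0 alone and 0 in F2 alone. Over all genes the 1660 calls became 1301, 923 and 34 in these 3 settings. Of the 18 pairs, 5 passed over all fish, 3 without the 2 farthest fish, 3 without the libraries that stood apart, 0 in F0 alone, 2 in F1 alone and 2 in F2 alone, with 1 of the 5 among the 2 in each of F1 and F2. The 5 pairs kept the sign of r throughout.

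Of the pairs that did not pass, r changed sign within generations for TH with SLC6A2 (0.03 in F0, 0.33 in F1), DBH with SLC6A2 (0.58 in F1), TH with SLC18A2 (-0.22 in F2), TPH2 with SLC6A4 (0.21 in F0, 0.02 in F1), TPH2 with FEV (-0.61 in F0, and -0.02 with a prior count of 0.5), TPH2 with SLC18A2 (0.10 in F1), SLC6A4 with SLC18A2 (-0.17 in F1), DDC with SLC18A2 (-0.26 in F2), th2 with slc6a4b (-0.03 in F2) and th2 with SLC18A2 (-0.17 in F2). It also did for TH with DDC (-0.17 in F0, -0.09 in F1, -0.18 without the 2 farthest fish, -0.15 without the libraries that stood apart), SLC6A4 with FEV (0.25 in F2, 0.09 without the libraries that stood apart) and TPH1 (ENSDARG00000029432) with slc6a4b (-0.22 in F2, -0.10 without the 2 farthest fish). The causes were not tested.

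Between lineages F0 females share the replicate numbers 15 and 16, F0 males 17 and F2 females 4, and nothing says that these pair the fish. A block needs at least 2 shared numbers, so it was fitted in F0 females alone. On those 4 libraries edgeR called 0 members with the replicate block and 0 without it.

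Most receptors had few counts, and a difference that was not called is not shown to be absent. Scaling by generation moved levels by a ratio of 0.933 to 1.054.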

Other observations

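For the lineage comparison over F1 and F2, 16 of 54 members lay above 0 and 38 below, beside 9690 above and 9372 below among all 19062 genes tested.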
